A study of Mus musculus with 1470 samples.

Results

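The peroxiredoxins Prdx1, Prdx2, Prdx3, Prdx4, Prdx5 and Prdx6 were examined together with catalase (Cat), the copper-zinc superoxide dismutase (Sod1) and the glutathione peroxidases Gpx1 and Gpx4. They were chosen by name, as the rows of the expression table with these symbols, and all 10 had a row among 14915. The table held 1470 single cells of the mouse liver, 718 from mice on a normal diet (ND1, ND2 and ND3) and 752 from mice on a high-fat diet (HFD1, HFD2 and HFD3). The mice were wild-type male C57BL/6J animals, and the livers of both diet groups were perfused with collagenase. Hepatocytes were spun out of the suspension before sorting, so the cells were largely non-parenchymal cells (NPCs), the endothelial and immune cells of the liver. A small number of hepatocytes and red cells also entered the sort. Each cell was sequenced with Smart-seq2, a full-length protocol without molecular identifiers, and its values were deposited as RPKM, in which reads are scaled to transcript length and to the reads mapped in that cell. Levels are given here on the scale of log2(RPKM + 1) as the mean of a class in a mouse, and the mouse was the replicate.

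These enzymes act in a chain. Superoxide dismutases turn superoxide, which leaks from respiration and is made on purpose by the NADPH oxidase of phagocytes, into hydrogen peroxide. Catalase splits hydrogen peroxide in the peroxisome, glutathione peroxidases reduce it with glutathione, and peroxiredoxins reduce it through a reactive cysteine that thioredoxin restores in most of them. The family members differ in place: Prdx1, Prdx2 and Prdx6 are mainly cytosolic, Prdx3 is mitochondrial, Prdx4 sits in the secretory pathway, and Prdx5 is found in several compartments. Hepatocytes are rich in peroxisomes and catalase, and red cells carry much Prdx2, catalase and Gpx1 protein beside their haemoglobin.

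Low RPKM values were close to whole numbers of reads, so depth could be estimated. The median cell had 121393 reads on exons, and the median per mouse ran from 85225 in HFD2 to 196603 in HFD1. Cells of HFD2 also had the fewest genes, with a median of 1595.5 at RPKM of 1 or more against 2363.5 to 3163 in the other mice. At the median depth 1 read was worth 5.49 RPKM of Prdx2, 12.9 of Sod1 and 3.15 of Cat, so a level of 2 to 4 averaged over cells mixes zeros with cells at clearly higher values. For the members named in the diet comparisons, values in HFD2 are therefore given apart, but they are not given for the wider list of redox genes. Labels place no cell in a cell type, so classes were rebuilt by clustering, with the 10 genes and a list of redox genes left out, and named from marker lists. The classes held 224 Kupffer cell-like cells (the resident macrophages of the sinusoids), 39 cells like monocyte-derived macrophages and dendritic cells (MoMac and DC-like), 432 endothelial-like, 48 NK cell-like, 20 plasmacytoid dendritic cell-like (pDC-like), 18 neutrophil-like, 35 hepatocyte-like and 30 erythrocyte-like cells. A further 19.3% of all cells were T cell-like and 16.6% B cell-like. Another 97 cells were not assigned, 29 of ND and 68 of HFD mice. Depth also differed between classes. MoMac and DC-like cells had a median of 249193 reads and 3237 genes, and pDC-like cells 214887 and 3210.5. Kupffer cell-like cells had 101136 and 2309.5, hepatocyte-like cells 96470 and 1974, and erythrocyte-like cells 123838 and 1808. The part of depth in the class levels was not tested. Erythrocyte-like cells had 13 of 16 listed markers in the table, and 10 were detected in most of these cells. All 13 were higher there than in other cells, which is no separate test because the same markers named the class. Haemoglobin beta and Alas2 transcripts made up a median of 34.7% of the summed RPKM of erythrocyte-like cells. Alas2, the first enzyme of haem synthesis in red cells and a listed marker, was detected in 100% of these cells, at a mean of 13.44. In each other class it was detected in 35.4% to 53.8% of the cells, at means of 1.16 to 3.15. With 3 cells per mouse as the minimum, hepatocyte-like cells gave values in 4 mice (ND1 and all HFD mice), erythrocyte-like cells in 4 mice (all ND mice and HFD1), pDC-like cells in 4, neutrophil-like cells in 5 and the others in 6.

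Across the classes the enzymes did not follow one order. Hepatocyte-like cells had the highest mean level of 7 of the 10 members, which were Prdx1, Prdx3, Prdx6, Cat, Sod1, Gpx1 and Gpx4. MoMac and DC-like cells were highest for Prdx5 and, by a margin smaller than the spread over mice, for Prdx2, where erythrocyte-like cells came first without ND2 or without ND3. The highest class of Prdx4 was pDC-like. Erythrocyte-like cells were lowest for 4 members and neutrophil-like cells for 3. Gpx1 was the most abundant member in each of the 10 classes, on a scale that corrects for transcript length, and was detected in 93.7% of all cells. Prdx3 and Prdx4 were detected in 21.7% and 22.7% of cells and did not pass a mean level of 4 in any class. The span between the highest and the lowest class was widest for Cat, at 9.74 on the log2 scale, and narrowest for Prdx4, at 1.85.

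**Figure D1:**
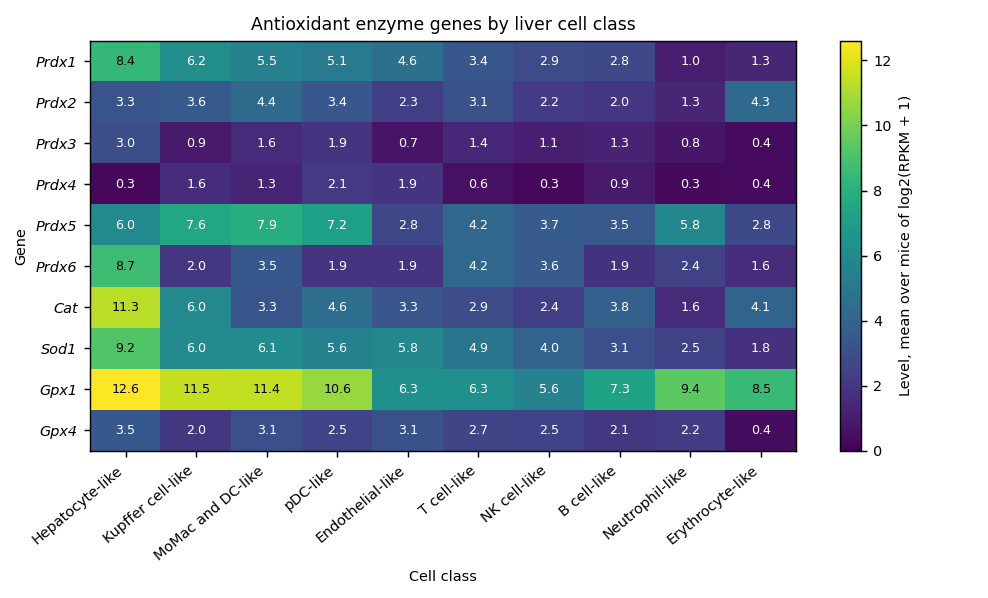
Mean level of each member in each class, as log2(RPKM + 1) averaged over cells within a mouse and then over mice. The hepatocyte-like class held the highest value for 7 members, and Gpx1 was the highest member in every class, from 5.61 in NK cell-like to 12.60 in hepatocyte-like cells.

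Each class was then set against the mean of the other classes with limma, with the mouse as a term, over 4033 genes and 53 profiles of a class in a mouse. Prdx4 fell below the filter on low values (a mean level of 1) and was not tested, which left 9 members and 90 comparisons. Of these, 47 passed an adjusted p of 0.05, 19 as higher and 28 as lower. In hepatocyte-like cells 6 of the 9 were higher and 0 lower, where 8.65% of all genes tested were higher and 32.3% lower. The median difference of the members there was 4.02, against -0.71 over all genes. In Kupffer cell-like cells 5 were higher and 1 lower, against 8.98% and 7.56% of all genes. In MoMac and DC-like cells the count was again 5 higher and 1 lower, but there 49.2% of all genes were higher and 7.61% lower, so the members stood less apart from the background. In pDC-like cells 2 were higher and 1 lower, with 36.8% and 9.6% of all genes.

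The lymphocytes, endothelial cells, neutrophils and red cells had mostly lower calls. In endothelial-like cells 0 members were higher and 4 lower, with 13.8% and 13.9% of all genes. In T cell-like cells 1 was higher and 2 lower, with 21% and 11.3% of all genes. In NK cell-like cells 0 were higher and 4 lower, with 14.5% and 12.5% of all genes, and in B cell-like cells 0 were higher and 5 lower, with 9.47% and 8.95%. All 9 tested members had a difference below 0 in B cell-like cells, with a median of -1.47 against -0.16 over all genes. In neutrophil-like cells 0 were higher and 4 lower, with 12.8% and 25.9% of all genes. In erythrocyte-like cells 0 were higher and 6 lower, but 68% of all genes were lower in these cells and 0.992% higher. The members' median there was -1.95 and that of all genes -1.16, so a lower call was the rule for genes in erythrocyte-like cells and is read against that share.

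Over the 53 profiles, Sod1 and Prdx1 were the 2 members whose levels were most alike (Pearson r = 0.83). Each was the other's closest match among 4032 genes. Over the 49 profiles without hepatocyte-like cells their r was 0.771, and Prdx5 and Gpx1 came just above them at 0.775. These profiles share mice, depth and preparation, so the values are descriptions. Windows of 250 bases upstream of the annotated start were available for 9 members, as RefSeq places them on GRCm38.p6, and none was listed for Prdx6. The windows of Sod1 and Prdx1 are shown because these 2 genes were most alike over all 53 profiles. Each held a core of the antioxidant response element (TGACNNNGC, both strands), the element bound by NRF2. No other member's window held these letters. The core was found in 10.2% of 32851 windows, and in 11.8% of the windows of genes in the expression table. The windows of both also held TATAAA (both strands), as did the window of Prdx3. TATAAA was found in 12.4% of all windows and in 7.23% of those of genes in the expression table. The window of Cat, the member with the widest span between classes, held CCAAT 4 times (both strands). At least 1 CCAAT was found in 33.8% of all windows and in 34.8% of those of genes in the expression table. Capitals mark matches to the response element core, to CCAAT and to AGATAA, the last with no match in these 3 windows, and each sequence runs 5′ to 3′ on the strand of its gene:
Sod1 (chr16:90220512-90220761, plus strand): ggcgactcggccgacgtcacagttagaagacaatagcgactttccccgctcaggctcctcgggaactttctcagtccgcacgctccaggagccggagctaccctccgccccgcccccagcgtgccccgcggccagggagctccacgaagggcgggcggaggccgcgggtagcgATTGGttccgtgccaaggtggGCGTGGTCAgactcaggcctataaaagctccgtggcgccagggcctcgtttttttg
Prdx1 (chr4:116685349-116685598, plus strand): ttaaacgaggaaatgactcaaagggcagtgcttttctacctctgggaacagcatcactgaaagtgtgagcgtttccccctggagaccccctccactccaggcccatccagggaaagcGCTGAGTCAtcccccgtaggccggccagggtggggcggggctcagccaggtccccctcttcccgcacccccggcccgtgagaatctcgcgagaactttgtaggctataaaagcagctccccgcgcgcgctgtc
Cat (chr2:103485154-103485403, minus strand): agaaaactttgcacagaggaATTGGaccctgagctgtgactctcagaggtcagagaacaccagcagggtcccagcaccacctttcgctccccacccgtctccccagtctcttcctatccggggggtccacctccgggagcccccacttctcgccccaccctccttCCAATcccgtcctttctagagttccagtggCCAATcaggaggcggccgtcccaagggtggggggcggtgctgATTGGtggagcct
These matches are descriptions of letters, and binding was not measured.

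Sod1 (chr16:90220762-90226333), which makes hydrogen peroxide from superoxide in the cytosol, was highest in hepatocyte-like cells, with 10.41 in ND1, 8.39 in HFD1, 9.21 in HFD2 and 8.62 in HFD3. No mouse of another class reached these values, the next highest being 7.77 in MoMac and DC-like cells. Hepatocyte-like cells were above the mean of the other classes by 4.77 ± 0.52 (SE, adjusted p = 1.02e-10, limma). Kupffer cell-like cells averaged 6.03 ± 1.27 (SD, n = 6), MoMac and DC-like cells 6.07 ± 1.06 (n = 6) and endothelial-like cells 5.82 ± 0.75 (n = 6). The first 2 of these were called higher, by 1.29 and 1.34, and endothelial-like cells, at 1.06, were not (adjusted p = 0.0561). Sod1 was lowest in erythrocyte-like cells, at 1.79 ± 0.85 (n = 4), and it was detected in 33.3% of them. The difference of erythrocyte-like cells from the mean of the other classes was -3.71 ± 0.52 (SE, adjusted p = 1.23e-07), well beyond the median of all genes in that class.

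Cat (chr2:103453904-103485153), the peroxisomal catalase, had the clearest gap between classes. Hepatocyte-like cells had 11.50 in ND1, 11.38 in HFD1, 10.72 in HFD2 and 11.65 in HFD3, with detection in 100% of cells. The next class, Kupffer cell-like cells, ran from 3.97 to 7.59 with a median of 5.94 over 6 mice, so the values did not overlap. Within the 4 mice that had both classes the difference was 5.45 ± 1.16 (SD), above 0 in 4 of 4 mice, with an exact sign-flip p of 0.125, the smallest that 4 mice allow. Against the mean of the other classes Cat was higher in hepatocyte-like (7.69 ± 0.50, SE) and Kupffer cell-like cells (1.84 ± 0.41) and lower in 5 classes, by up to 2.86 in neutrophil-like cells. Erythrocyte-like cells had 3.58 in ND1, 1.60 in ND2, 5.65 in ND3 and 5.44 in HFD1. Their difference from the mean of the other classes was -0.32 ± 0.50 and was not called, in a class where most genes were lower. The 2 genes whose profiles were most like that of Cat were Ttc36 (r = 0.90) and Mat1a (r = 0.89), of which Mat1a makes S-adenosylmethionine in hepatocytes and was also on the hepatocyte marker list.

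Gpx1 (chr9:108339080-108340342), the main cytosolic glutathione peroxidase, separated the classes into a high and a low set. Hepatocyte-like cells had 12.60 ± 0.58 (SD, n = 4), Kupffer cell-like cells 11.48 ± 0.46 (n = 6), MoMac and DC-like cells 11.44 ± 0.61 (n = 6) and pDC-like cells 10.64 ± 0.58 (n = 4). All 4 were called higher than the mean of the other classes, by 4.02, 2.79, 2.75 and 1.83. B cell-like cells had 7.31 ± 1.30, endothelial-like and T cell-like cells 6.34 each, and NK cell-like cells 5.61 ± 0.79 (n = 6 each), and all 4 were called lower, by 1.84 to 3.74. The highest of these lymphocyte and endothelial values, 8.36 in B cell-like cells, was below the lowest of the 4 high classes, 9.94 in pDC-like cells. Neutrophil-like and erythrocyte-like cells lay between, at 9.44 ± 1.58 (n = 5) and 8.54 ± 1.69 (n = 4), and neither was called. The order depended on the averaging. As RPKM averaged before logarithms, erythrocyte-like cells came next after hepatocyte-like cells, with means over mice of 5398 and 7992 RPKM. Kupffer cell-like cells had 4036 and MoMac and DC-like cells 3468 RPKM. Ftl1, the ferritin light chain, had the profile most like Gpx1 (r = 0.76), followed by Prdx5 (r = 0.73).

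Gpx4 (chr10:80047166-80056439), which reduces lipid peroxides in membranes, was low in this table and varied little. It ran from 2.05 ± 1.03 in Kupffer cell-like to 3.46 ± 1.19 in hepatocyte-like cells over 9 classes, and no class was called higher. Erythrocyte-like cells had 1.74 in ND1 and 0 in ND2, ND3 and HFD1, with detection in 6.67% of cells. That class was the only call for Gpx4 among the 10, at -2.45 ± 0.53 (SE, adjusted p = 0.000224). Only reads that mapped to a single place were counted by the authors, so reads shared with a near-identical copy elsewhere in the genome would be missing from any of these genes. Copies were not searched for here.

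**Figure D2:**
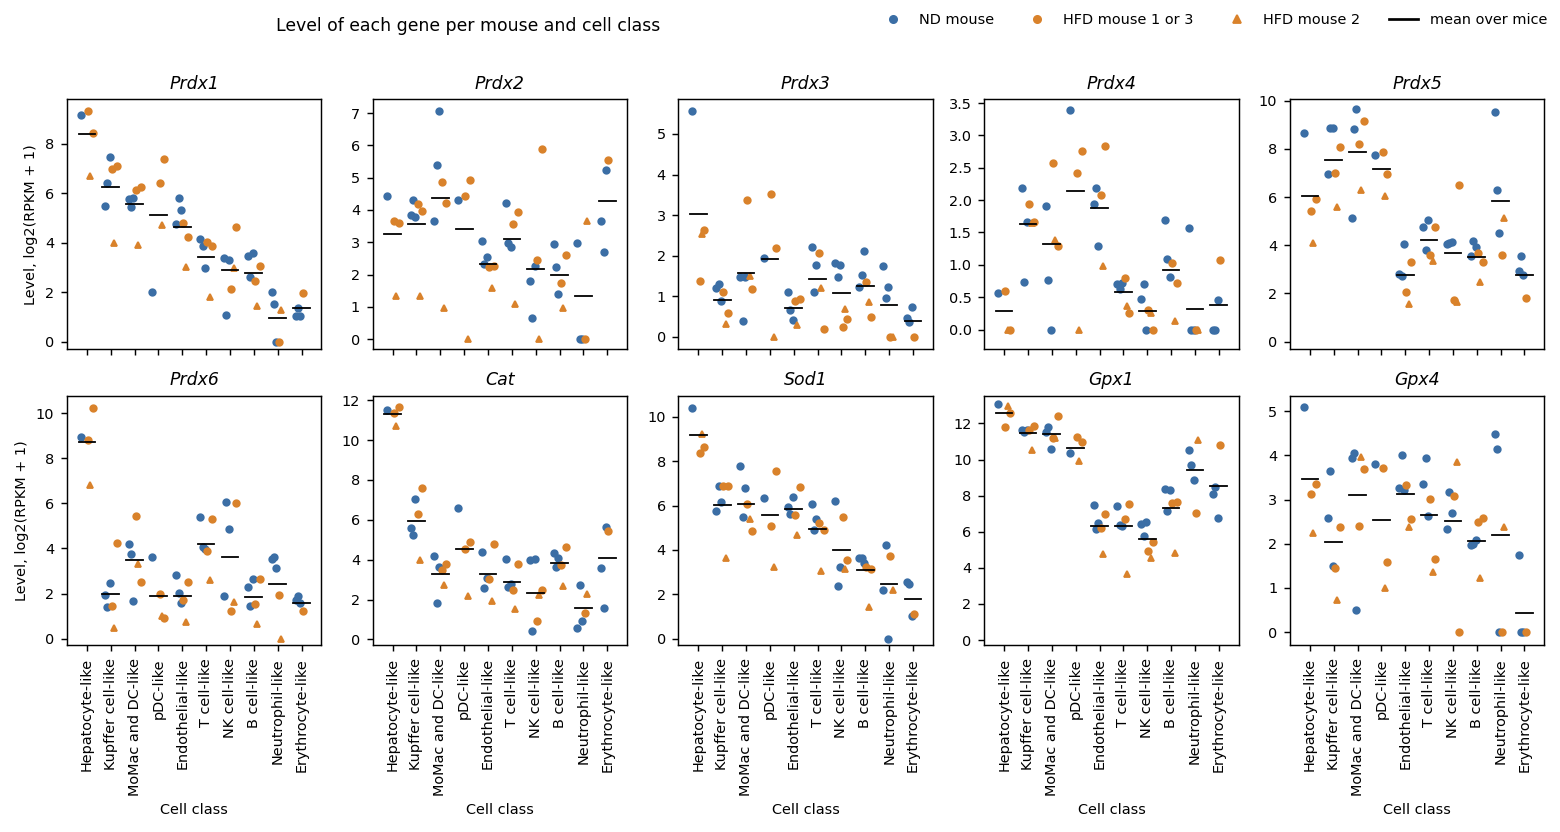
Level of each member in every class and mouse, as the mean log2(RPKM + 1) of the cells of that class, 1 panel per member and 1 point per mouse, with HFD2 drawn as a triangle. In Cat the hepatocyte-like points (10.72 to 11.65) lie above all others, whereas the points of Gpx4 and Prdx3 overlap in most classes.

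Among the cytosolic peroxiredoxins, Prdx1 (chr4:116685599-116700000) followed Sod1. Hepatocyte-like cells had 9.14 in ND1, 9.32 in HFD1, 6.70 in HFD2 and 8.44 in HFD3. Kupffer cell-like cells followed with a lowest value of 3.97, a median of 6.71 and a highest of 7.46, so they overlapped the hepatocyte-like value of HFD2. Prdx1 was called higher in hepatocyte-like (4.78 ± 0.51, SE), Kupffer cell-like (2.31 ± 0.42) and MoMac and DC-like cells (1.55 ± 0.42), and lower in NK cell-like, B cell-like, neutrophil-like and erythrocyte-like cells, by 1.38 to 3.39. Endothelial-like cells were above T cell-like cells in 6 of 6 mice, by 1.21 ± 0.80 (SD, exact sign-flip p = 0.0312, the smallest for 6 mice, unadjusted over 90 neighbouring pairs). Of those pairs 36 had values in 6 mice, and this was 1 of 2 that reached that p, the other being Gpx1 in B cell-like above endothelial-like cells.

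Prdx6 (chr1:161240112-161251210), the 1-cysteine peroxiredoxin that also acts on phospholipids, had a hepatocyte-like level of 8.94 in ND1, 8.81 in HFD1, 6.82 in HFD2 and 10.24 in HFD3. No other class overlapped this range, since the highest value elsewhere was 6.07, in NK cell-like cells. T cell-like cells came second with 4.21 ± 1.04 (SD, n = 6) and were called higher than the mean of the other classes by 1.13 ± 0.45 (SE, adjusted p = 0.0474). It was the only member called higher in T cell-like cells, and no member was called higher in NK cell-like or B cell-like cells. Kupffer cell-like cells, in which Prdx1, Prdx5, Cat, Sod1 and Gpx1 were called higher, had Prdx6 lower, by 1.33 ± 0.45 (adjusted p = 0.0314). A close relative, Prdx6b, was detected in 11.9% of cells, and reads that Prdx6 and Prdx6b share cannot be assigned.

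Prdx5 (chr19:6906697-6910106) was highest in the macrophage and dendritic cell classes. MoMac and DC-like cells had 7.88 ± 1.77, Kupffer cell-like cells 7.55 ± 1.28 (SD, n = 6 each) and pDC-like cells 7.16 ± 0.83 (n = 4), and each was called higher, by 2.99, 2.63 and 2.51. These neighbours in the order did not differ beyond the spread over mice. Endothelial-like cells were lowest at 2.75 ± 0.89 (n = 6) and were called lower by 2.70 ± 0.48 (SE, adjusted p = 8.13e-06). Hepatocyte-like cells, at 6.03 ± 1.92 (SD, n = 4), were not called (difference 1.25, adjusted p = 0.0749), nor were neutrophil-like cells at 5.82 ± 2.30 (n = 5). The profiles most like Prdx5 were those of Mpeg1 (r = 0.77), the macrophage perforin, and Ctsa (r = 0.74), a lysosomal protease.

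Prdx3 (chr19:60864066-60874538), the mitochondrial enzyme, reached 3.03 ± 1.79 in hepatocyte-like cells (SD, n = 4), with 1.37 to 5.57 among mice, and 0.39 to 1.91 in the other classes. It was called higher in hepatocyte-like cells (2.02 ± 0.41, SE) and lower in erythrocyte-like cells (-1.28 ± 0.41). The genes closest to it in profile, Fh1 (r = 0.72) and Got2 (r = 0.71), also encode mitochondrial enzymes. Prdx4 (chrX:155323918-155342272), the member of the endoplasmic reticulum, went another way. It was highest in pDC-like cells (2.14 ± 1.48, n = 4) and endothelial-like cells (1.88 ± 0.67, n = 6) and lowest in hepatocyte-like cells, where it was detected in 11.4% of cells and averaged 0.29 ± 0.33 (n = 4), next to the 0.29 ± 0.27 (n = 6) of NK cell-like cells. Canx, the membrane chaperone calnexin of the same compartment, had the profile most like Prdx4 (r = 0.77).

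Prdx2 (chr8:84969622-84974811) is the peroxiredoxin that red cells are known for. Averaged as log2 values, erythrocyte-like cells had 3.67 in ND1, 2.69 in ND2, 5.23 in ND3 and 5.55 in HFD1. MoMac and DC-like cells had a lowest value of 0.97, a median of 4.54 and a highest of 7.07 over 6 mice, and their mean of 4.37 ± 2.03 (SD) was next to the 4.29 ± 1.34 of erythrocyte-like cells. The groups overlapped, and within the 4 shared mice the erythrocyte-like value was higher in 1 of 4 (mean difference -0.96 ± 1.58, SD; exact sign-flip p = 0.375, smallest possible 0.125). Against the mean of the other classes the erythrocyte-like difference was 1.25 ± 0.63 (SE, 95% interval -0.02 to 2.53) and was not called (adjusted p = 0.0719). The calls for Prdx2 were MoMac and DC-like cells as higher (1.54 ± 0.52, SE, adjusted p = 0.0105) and neutrophil-like cells as lower (-1.63 ± 0.57, adjusted p = 0.0203). Prdx2 was the only member with a difference above 0 in erythrocyte-like cells, where 2.21% of all genes tested had one.

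The single cells show how that mean arose. Prdx2 was at 0 in 11 of the 30 erythrocyte-like cells, 6 cells lay between, and 13 cells (43.3%) had a level of 8 or more. In no other class did more than 28.2% of cells reach 8, the share in MoMac and DC-like cells, and it was 22.3% in Kupffer cell-like, 17% in T cell-like and 7.64% in endothelial-like cells. Among cells with Prdx2 detected, the median was 9.27 in erythrocyte-like cells, 8.56 in hepatocyte-like, 7.30 in T cell-like, 7.07 in MoMac and DC-like and 6.71 in Kupffer cell-like cells. Averaged as RPKM before taking logarithms, erythrocyte-like cells therefore came first, with a mean over mice of 362.6 RPKM against 170.4 in Kupffer cell-like, 163.1 in hepatocyte-like and 126.6 in MoMac and DC-like cells. On that scale the erythrocyte-like value was above that of MoMac and DC-like cells in 4 of 4 mice, by 1.21 on the log2 scale (exact sign-flip p = 0.125, the smallest possible). By the mean over mice erythrocyte-like cells came first in 8 of 17 alternatives, among them this averaging, rescaled cells, other clusterings and leaving out ND2 or ND3. Those means are over unlike mice, since MoMac and DC-like cells also had values in HFD2 (0.97) and HFD3 (4.23). Within the mice that had both classes, the mean difference of erythrocyte-like from MoMac and DC-like cells was below 0 in all 17 but this averaging (-0.38 without ND2, -0.67 without ND3). Erythrocyte-like cells with and without Prdx2 had a median of 1870 and 1631 genes, and a median Alas2 level of 13.31 and 13.42. In HFD2 and HFD3, whose 2 and 1 erythrocyte-like cells were too few for the comparisons, all 3 cells had Prdx2 at 9.07 or more.

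**Figure D3:**
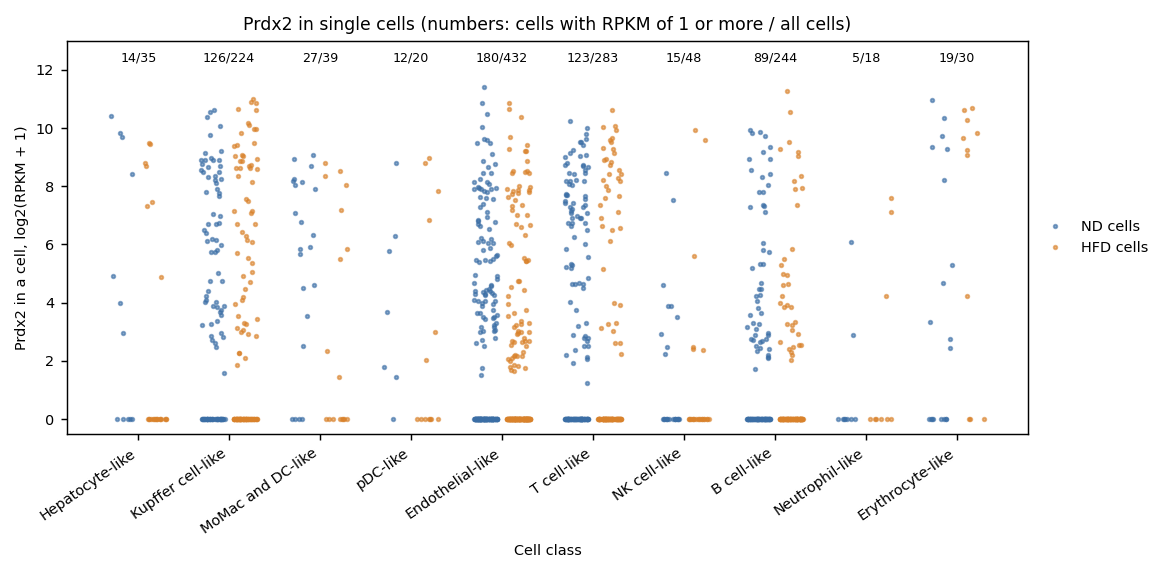
Level of Prdx2 in single cells by class, as log2(RPKM + 1), with ND and HFD cells in separate colours and the number of cells with RPKM of 1 or more over all cells above each class. Of 30 erythrocyte-like cells 13 lie at 8 or more and 11 at 0, whereas 252 of 432 endothelial-like cells lie at 0.

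Transcripts of hepatocyte and red cell marker genes were detected in every class, and their levels are given beside these results. Alb, the albumin transcript of hepatocytes, was detected in 87.5% to 100% of the cells of each class. Hbb-b2+Hbb-bt, a haemoglobin row that joins a pair of genes, was detected in 37.1% to 65% of cells outside the erythrocyte-like class, and Hbb-bs in at most 2.86%. Kupffer cell-like cells had the highest levels of hepatocyte marker genes among the other classes, with 21 hepatocyte markers at a mean level of 4.76 against 1.42 to 2.64 in the 8 other non-hepatocyte classes. As mean RPKM, they held Alb at 22.5%, Apoa1 at 34% and Ttr at 16.7% of the hepatocyte-like level. Their Prdx5 was at 179.2%, Prdx2 at 104.5%, Gpx1 at 50.5%, Prdx1 at 42.1%, Gpx4 at 39.6% and Sod1 at 25% of the hepatocyte-like level, while Prdx3 was at 13.1%, Cat at 9.55% and Prdx6 at 3.66%. Prdx4, at 86.5 RPKM in Kupffer cell-like and 1.45 RPKM in hepatocyte-like cells, was at 5956%. The share for Cat in Kupffer cell-like cells was thus below those of Alb, Apoa1 and Ttr. When the Kupffer cell-like cells of each mouse were split at their median Alb, Cat was 6.20 ± 1.43 (SD, n = 6) in the cells with less Alb and 5.71 ± 1.30 in those with more, and it was lower with less Alb in 2 of 6 mice. Sod1 and Gpx4 also had a higher mean in the cells with less Alb, by 0.37 and 0.10. The other 7 members had a lower mean there, with the widest differences in Prdx5 (-0.91, lower in 4 of 6 mice) and Prdx2 (-0.33, lower in 5 of 6 mice), and Gpx1 at -0.27. Apoa1 and Ttr, which the split did not use, differed there by -2.12 and -2.41. The source of these transcripts in other classes, and their part in the members' levels, was not tested.

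**Figure D4:**
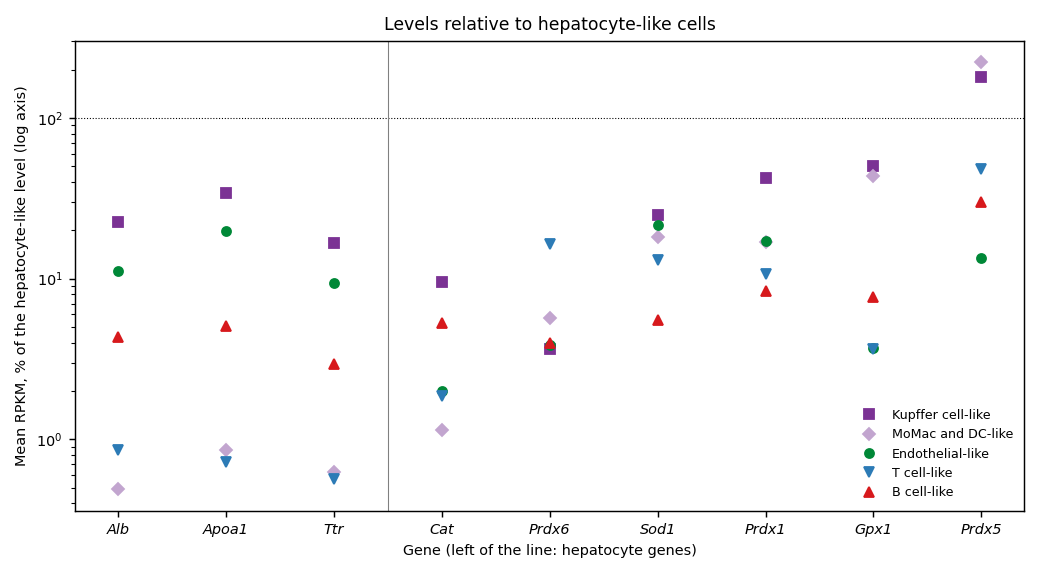
Mean RPKM of 6 members and of the hepatocyte genes Alb, Apoa1 and Ttr in other classes, in percent of the hepatocyte-like class, on a log axis. In Kupffer cell-like cells Prdx5 (179.2%), Gpx1 (50.5%) and Prdx1 (42.1%) lie above the 3 hepatocyte genes (16.7% to 34%), and Cat (9.55%) and Prdx6 (3.66%) lie below them.

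Other genes of the redox pathways were taken from a list of 84, of which 82 had a row and 49 were tested between classes. In Kupffer cell-like cells 13 (26.5%) were higher and 0 lower, where 8.98% and 7.56% of all genes were. The largest differences there were those of Hmox1 (4.61), which breaks down haem, Blvrb (4.05), a biliverdin reductase, and Cybb (3.14), the catalytic subunit of the phagocyte NADPH oxidase. In hepatocyte-like cells 17 (34.7%) were higher and 14 (28.6%) lower, with 8.65% and 32.3% of all genes, led by the glutathione transferases Gsta3 (9.86), Gstm1 (7.48) and Gstp1 (6.80), while Rac2 (-3.53) and Cyba (-3.49), parts of the oxidase complex, and Txnip (-2.75), a thioredoxin inhibitor, were lowest. In neutrophil-like cells, where no member was called higher, 15 of these genes (30.6%) were higher and 12 (24.5%) lower, against 12.8% and 25.9% of all genes, with glutathione reductase Gsr (6.60) and Msrb1 (5.27), a methionine sulfoxide reductase, in front and Sepw1 (-3.13), Gstp1 (-2.85) and Park7 (-2.18) lowest. Erythrocyte-like cells had 2 higher (4.1%) and 34 lower (69.4%), against 0.992% and 68% of all genes. The 2 higher ones were Gclm (2.30), the modifier subunit of the enzyme that starts glutathione synthesis, and Ftl1 (1.12), while Txn1 (-3.60), the cytosolic thioredoxin, was among the 3 lowest, after Cyba (-4.19) and Rac2 (-3.83).

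MoMac and DC-like cells had 25 higher (51%) and 4 lower (8.2%), near the 49.2% and 7.61% of all genes, led by Atox1 (4.69), a copper chaperone, and Cybb (4.24), with Gsta3 (-1.86), Sepp1 (-1.16) and Gclm (-0.87) lowest. In pDC-like cells 14 (28.6%) were higher and 10 (20.4%) lower, against 36.8% and 9.6% of all genes, with Cybb (4.78), the mitochondrial thioredoxin Txn2 (3.55) and Rac2 (3.02) in front and Gstm1 (-2.46), Sepp1 (-2.18) and Mgst1 (-1.72) lowest. Endothelial-like cells had 5 (10.2%) higher and 14 (28.6%) lower, against 13.8% and 13.9% of all genes, with Sepp1, the plasma selenium carrier, at 5.53 and Mt1, a metallothionein, at 5.21 and Txnip at 2.07, and with Rac2 (-3.81), Cyba (-3.14) and the ferritin heavy chain Fth1 (-2.83) lowest. T cell-like cells had 5 (10.2%) higher and 15 (30.6%) lower, against 21% and 11.3% of all genes. NK cell-like cells had 3 (6.1%) and 14 (28.6%), against 14.5% and 12.5%, and B cell-like cells 4 (8.2%) and 16 (32.7%), against 9.47% and 8.95%. Ftl1 was among the 3 lowest in all 3 lymphocyte classes, by 2.29, 2.88 and 2.25, and Rac2 was the highest in T cell-like and NK cell-like cells, at 3.50 and 2.31. Txnip was higher in T cell-like (1.89) and B cell-like cells (1.19), and Sesn1, a sestrin, in NK cell-like (0.77) and B cell-like cells (1.74). The third higher gene was Sepw1 in T cell-like (1.83) and Txnrd1 in NK cell-like cells (1.24). Beside Ftl1, the lowest were Cybb (-2.31) and Gstm1 (-2.16) in T cell-like, Cybb (-2.07) and Fth1 (-1.99) in NK cell-like, and Atox1 (-2.20) and Msrb1 (-2.09) in B cell-like cells.

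Diets were compared within the 6 classes that had 5 cells or more in at least 2 mice of each diet, with limma over all genes of a class. Members were tested in 55 combinations of a gene and a class (5 fell below the filter on low values), and 0 were called at an adjusted p of 0.05, the smallest being 0.730. At an unadjusted p of 0.05, 4 of the 55 passed, 1 of 9 each in endothelial-like and T cell-like cells and 2 of 9 in NK cell-like cells, where 3.86%, 3.82% and 6.05% of all genes did. Of the other limma settings, the mean-variance trend called 0 and the fit without moderation of the spread called 1, Prdx5 in NK cell-like cells. Over all genes 0.0307% were called in Kupffer cell-like cells, which was 1 gene, Serpina1e, and 0% in each of MoMac and DC-like, endothelial-like, T cell-like, NK cell-like and B cell-like cells. The difference of HFD minus ND was below 0 in 42 combinations and above 0 in 13, from -2.85 to 0.90. Over all genes tested, 23.8% (T cell-like) to 44% (MoMac and DC-like) of differences were above 0 per class. With RPKM averaged before the logarithm 37 combinations were below and 22 above 0, and 14 of the 55 changed sign. The standard errors ran from 0.43 to 1.12 with a median of 0.66, so differences of about 1 on the log2 scale could not be told from 0. Larger ones, such as -2.03 (Prdx2 in MoMac and DC-like cells) and -2.85 (Prdx6 in NK cell-like cells), were not called either. The called gene Serpina1e differed by -3.66 ± 0.51 (SE).

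HFD2, the mouse with the fewest genes per cell, held low values in several of these comparisons. In Kupffer cell-like cells, for example, Gpx1 was 11.63, 11.55 and 11.66 in the ND mice and 11.61 and 11.84 in HFD1 and HFD3, but 10.56 in HFD2. Prdx2 in the same cells was 3.85, 4.30 and 3.78 in the ND mice, 4.19 and 3.96 in HFD1 and HFD3, and 1.33 in HFD2. Without HFD2, which leaves NK cell-like cells out of the comparison, the signs were even, with 24 combinations below and 24 above 0 among 48, and 0 passed an unadjusted p of 0.05. Of the 35 combinations below 0 that could be compared, 22 stayed below 0 and 13 turned above it. With cells of at least 1500 genes alone, and all mice, 40 were below and 16 above 0. Without HFD3, 48 were below and 7 above 0, with 12 at an unadjusted p of 0.05 and 0 called (smallest adjusted p of 0.210). Leaving out any of the other mice gave 3 to 5 at that unadjusted p. The median difference over all genes was also below 0 in each of the 6 classes, from -0.49 in NK cell-like to -0.12 in MoMac and DC-like cells.

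The combinations that passed before adjustment were in 3 classes. Prdx1 in endothelial-like cells was 4.74, 5.79 and 5.33 in ND1, ND2 and ND3 and 4.78, 3.02 and 4.22 in HFD1, HFD2 and HFD3. The diets overlapped, and the difference was -1.28 ± 0.49 (SE, limma p = 0.0152, adjusted p = 0.966). Without HFD2 it was -0.79. Gpx4 in T cell-like cells was 3.35, 3.94 and 2.64 in the ND mice and 3.002, 1.35 and 1.65 in the HFD mice, a difference of -1.31 ± 0.57 (limma p = 0.0312, adjusted p = 0.996) that was -0.98 without HFD2.

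NK cell-like cells gave the largest differences, with 3 ND and 2 HFD mice, of which 1 was HFD2. Prdx5 was 4.05, 4.09 and 4.14 in the ND mice and 1.71 and 1.66 in HFD1 and HFD2, so the diets did not overlap, and the difference was -2.41 ± 0.92 (SE, limma p = 0.0155, adjusted p = 0.730). It was called without a filter on low values (adjusted p = 0.0118) and without moderation of the spread (adjusted p = 0.0396). Prdx6 was 1.91, 6.07 and 4.85 in the ND mice and 1.22 and 1.64 in HFD1 and HFD2, a difference of -2.85 ± 1.09 (limma p = 0.0162, adjusted p = 0.733). Each mouse had 6 to 15 of these cells. With mice of 3 cells included, which adds HFD3, the differences were -0.81 for Prdx5 and -1.32 for Prdx6. In NK cell-like cells 4 of the 9 members tested did not overlap between diets, Prdx3 and Gpx1 being the others, against 22.7% of all genes.

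In the other classes the diets separated for few members. None of the members tested was without overlap in Kupffer cell-like (0 of 9, 7.07% of all genes), MoMac and DC-like (0 of 10, 8.17%) and T cell-like cells (0 of 9, 8.15%). Prdx2 did not overlap in endothelial-like cells (1 of 9, 7.67% of all genes), with 3.04, 2.34 and 2.53 in the ND mice and 2.24, 1.59 and 2.26 in the HFD mice. Sod1 did not overlap in B cell-like cells (1 of 9, 10.4% of all genes), with 3.64, 3.65 and 3.42 in the ND mice and 3.21, 1.45 and 3.12 in the HFD mice. Neither passed limma before adjustment (p = 0.175 and p = 0.0937), and an exact permutation test with 3 mice against 3 cannot go below 0.1. Cat, the member that differed most between classes, had a diet difference of -0.01 in Kupffer cell-like cells, with a 95% interval from -1.75 to 1.73. That value rested on HFD2, since Cat there was 5.58, 5.24 and 7.06 in the ND mice, 6.30 and 7.59 in HFD1 and HFD3, and 3.97 in HFD2. Without HFD2 the difference was 0.99 ± 0.56 (SE, limma p = 0.0901, not called). Diets could not be compared in erythrocyte-like cells, where 1 HFD mouse had enough cells, or in hepatocyte-like cells, where 1 ND mouse did. Of the wider redox list 36 to 52 genes were tested per class, and 0 were called between diets in each of the 6 classes (limma). At an unadjusted p of 0.05 there were 17 in all, from 1 of 52 in MoMac and DC-like to 7 of 43 in endothelial-like cells, where 3.45% and 3.86% of all genes passed. The gene of that list with the smallest p was the glutathione transferase Gstp1 in Kupffer cell-like (-2.45), the glutaredoxin Glrx5 in MoMac and DC-like (-2.04), Cyba in endothelial-like (-1.66), Taldo1, of the pentose phosphate pathway, in T cell-like (-1.43), Park7 in NK cell-like (-3.21) and Txn2 in B cell-like cells (-1.25), and their adjusted p ran from 0.586 to 0.999.

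**Figure D5:**
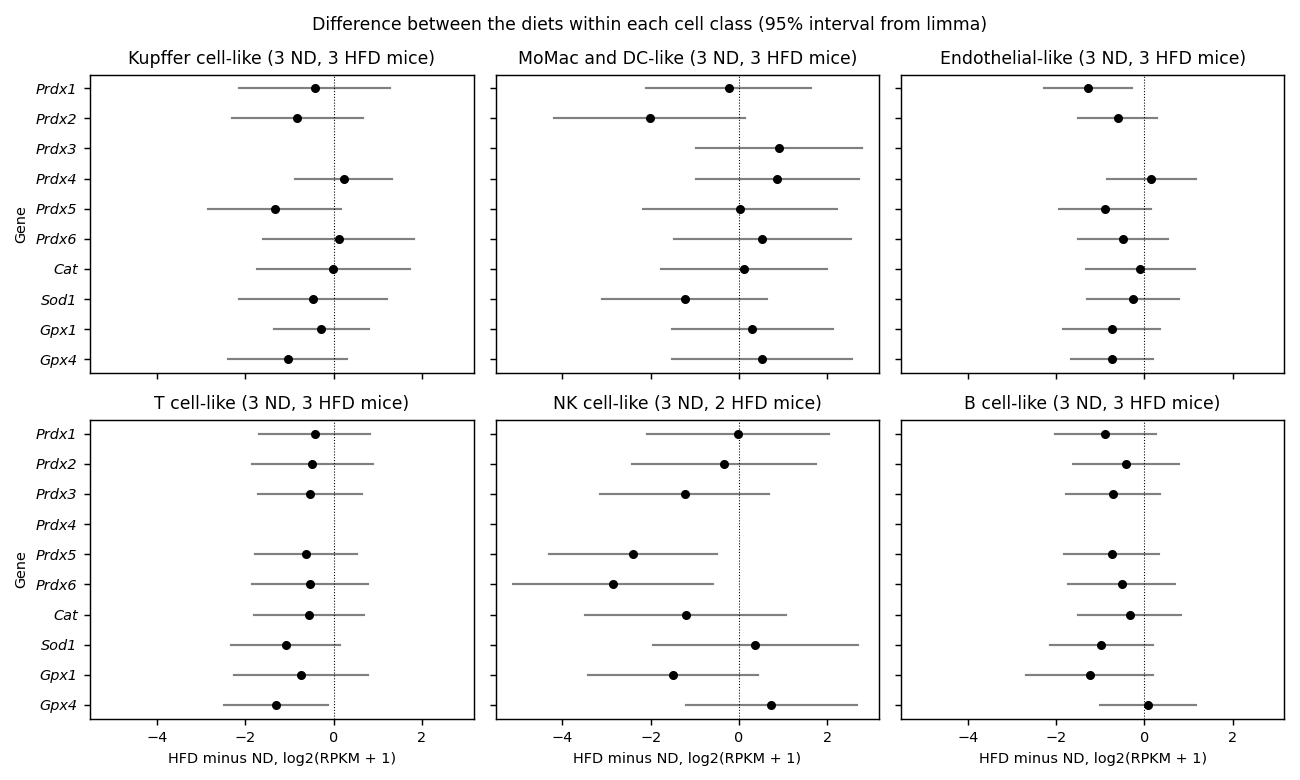
Difference of HFD minus ND for each member in the 6 classes compared, in log2(RPKM + 1), with 95% intervals from limma. Points lie mostly below 0 (42 of 55), and 4 of the 55 intervals leave out 0.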

How the data were processed

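The authors sequenced single sorted liver cells with Smart-seq2, aligned the reads to mm10 using STAR and took those with 1 mapping position into rpkmforgenes. The values the authors deposited are RPKM for 14915 gene rows in 1470 cells, after quality filters and doublet removal with Scrublet. Count models were not applied to RPKM. In the median cell 90.5% of low values lay within 0.05 of a whole number of reads for 10722 genes with a known length (13.75% with shuffled lengths; 81% in HFD2 and 89.25% to 91.75% in the other mice), which gave the depths. All columns were matched to a mouse by their labels (0 left over).

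The 10 members, the marker lists and the redox list were chosen with earlier results of these data known. All 10 members are named throughout. From the redox list up to 3 called genes with the largest and smallest difference are named per class, and the gene with the smallest p per diet comparison. Not every gene that this rule selects is reported here. For likeness, the 2 genes with the highest Pearson r are named. A few further values, such as the share of cells at a level of 8 or more, were chosen after seeing the data.

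Values were taken as log2(RPKM + 1), with a pseudocount of 1, so fold changes of low genes are understated. Cells were clustered on 1000 variable genes, 20 principal components and a graph of 15 neighbours by spectral clustering, with the fewest clusters from 12 to 25 that named each class, which was 15. A cluster was named from its markers with at least 3 detected in most of its cells, and not where another class had more markers among its 10 leading genes. A cell was kept when its own markers gave the class of its cluster. This cell check was added after seeing a cluster of mixed cells. Class means per mouse needed 3 cells, and diet comparisons 5 cells in at least 2 mice per diet. limma was fitted over all genes with a mean of at least 1, with Benjamini-Hochberg adjustment over all of them, and was tested on simulated data. Neighbouring classes were compared by exact two-sided sign flips within mice. Promoter windows and gene positions came from RefSeq tables of GRCm38.p6, the assembly of mm10. Alternatives covered the pseudocount, averaging, scaling, clustering, filters and leaving out each mouse. Python 3.11.15, scikit-learn 1.9.0, scipy 1.17.1, R 4.3.3 and limma 3.58.1 were used.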

Additional observations from a re-analysis of the deposited data

Results flagged for a closer look

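Dixon's test at 95% flags about 5% of groups, or 1 in 20, when values are independent and normally distributed. The groups here share mice, and some hold only zeros beside 1 value, so that rate is a rough guide. In 12 of 100 groups of 4 or more mice (a member in a class), 1 mouse lay further from the others than the test allows. HFD2 was that mouse in 8 of the 12, each time as the lowest. In Kupffer cell-like cells of HFD2 these were Prdx2 at 1.33 (3.78 to 4.30 in the others), Sod1 at 3.63 (5.74 to 6.89) and Gpx1 at 10.56 (11.55 to 11.84). In B cell-like cells of HFD2 they were Sod1 at 1.45 (3.12 to 3.65) and Gpx1 at 4.83 (7.15 to 8.36), and in T cell-like cells Gpx1 at 3.65 (6.29 to 7.54). Prdx1 in MoMac and DC-like cells of HFD2 was 3.90 (5.43 to 6.26), from 6 cells, and Prdx2 in pDC-like cells of HFD2 was 0 (4.31 to 4.93), from 5 cells. HFD2 also had the fewest genes per cell, and the part of depth in these values was not tested.

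In the remaining 4 groups the mouse was another. Prdx3 in MoMac and DC-like cells of HFD1 was 3.37 (0.40 to 1.499). Prdx4 in Kupffer cell-like cells of ND2 was 0.73 (1.64 to 2.18), and in neutrophil-like cells of ND1 it was 1.57, with 0 in the other mice, from 3 cells. Gpx4 in erythrocyte-like cells of ND1 was 1.74, with 0 in the other mice, from 5 cells.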

How the results depend on the processing

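The count of member comparisons called between classes, 47 in the fit reported, was 39 to 59 under 21 alternatives, and no comparison called both ways changed sign. Leaving out each mouse gave 42 to 51. The class with the highest level stayed the same for 8 to 10 members under 17 alternatives (8 to 10 without each mouse), and the members that changed it were Prdx2 (to erythrocyte-like in 8 of the 17, among them without ND2 and without ND3), Prdx4, Prdx5 and Gpx4. The difference of Prdx2 between erythrocyte-like and MoMac and DC-like cells reversed to 1.21 when RPKM was averaged before the logarithm, and was -1.59 to -0.12 under the other 16 alternatives (-1.51 to -0.38 without each mouse). Keeping all cells of a cluster, an alternative chosen after seeing the data, gave the -0.12, with 59 calls between classes and 0 between diets. The count called between diets was 0, and 0 without each mouse (0 to 12 at an unadjusted p of 0.05, the lowest without HFD2 and the highest without HFD3), but 1 without a filter on low values and 1 without moderation of the spread. That call was Prdx5 in NK cell-like cells (adjusted p = 0.0118 and 0.0396, limma, against 0.610 to 0.952 under its other alternatives). For the 4 combinations named, no alternative turned the direction, but the sizes moved. Prdx1 in endothelial-like cells was -1.67 (without HFD1) to -0.79 (without HFD2), Gpx4 in T cell-like cells -1.81 (without HFD1) to -0.58 (pseudocount of 10), Prdx6 in NK cell-like cells -4.31 (pseudocount of 0.1) to -1.32 (mice with 3 cells), and Prdx5 there -3.15 to -0.81 under the same pair. NK cell-like cells could not be compared without HFD1 or HFD2.

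Mouse numbers are shared by the diets (ND1 and HFD1 and so on). Deviations of same-numbered mice correlated at -0.09 to 0.19 in 17 pairs, 4 of them over 0.1. Those of differently numbered mice correlated at -0.196 to 0.105. The ranges overlap, so these values do not decide whether the numbers pair the mice. With the mouse number as a replicate block the count called between diets was 0, with 8 combinations at an unadjusted p of 0.05 against 4 without the block. At the median depth 1 read was worth 3.15 (Cat) to 12.9 RPKM (Sod1), so low levels rest on few reads.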
